A study of Mus musculus with 24 samples.

Results

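The chromatin of 5 genes that encode myeloid differentiation factors was examined in enhancer catalogues of normal and leukemic mouse bone marrow cells. The genes were Spi1, Cebpa, Cebpb, Irf8 and Gfi1, and each was represented by a fixed window on mm9. The windows were 240 kb for Spi1 (chr2:90820000-91060000), 210 kb for Cebpa (chr7:35800000-36010000), 310 kb for Cebpb (chr2:167410000-167720000), 220 kb for Irf8 (chr8:123160000-123380000) and 220 kb for Gfi1 (chr5:108040000-108260000). Every listed region that overlapped a window by at least 1 bp was taken. This gave 91 of the 26592 regions in the 3 enhancer lists (11 of 3332 in gmp, 32 of 9404 in k+ and 48 of 13856 in k-). It also gave 49 of the 15189 regions classed by the authors as gained in tumor, 5 of the 1504 lost and 6 of the 1870 maintained.

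The cells came from C57BL/6 bone marrow. Granulocyte-monocyte progenitors (GMP) are the normal progenitors of neutrophils and monocytes, and the leukemia cells, labelled leukemia stem cells and mature AML cells, carried the MLL-AF10 fusion and were grown in culture. Each of the 3 populations had 1 library each for H3K27ac, H3K4me1, H3K4me3 and input, with no treatment named. The other libraries, of leukemia stem cells at 0, 24, 48 and 72 hours of the p300/CBP inhibitor A-485, were not analysed here. The sources used here do not say which leukemia population k+ and k- stand for, nor which marks defined an enhancer, so the lists are called by their own names. The lists held positions alone, with 0 columns of score or read count, so depth is unknown, and with 1 sample per group no difference below has a replicate or a test.

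Commitment to the granulocyte and monocyte lineages runs through a small network of transcription factors. PU.1, encoded by Spi1, and C/EBPα, encoded by Cebpa, open and activate myeloid enhancers, and C/EBPα is required for progenitors to reach the GMP stage. C/EBPβ, from Cebpb, sustains granulocyte output under stress and serves monocytes and macrophages. IRF8 favours monocytes and dendritic cells, while the repressor GFI1 favours neutrophils. H3K27ac with H3K4me1 is the usual signature of an active enhancer, and genes of this kind often have several enhancers spread over long distances. A window also holds neighbouring genes, so a region in it need not act on the gene it is named for. In RefSeq on GRCm38.p6 the nearest protein-coding neighbours are Slc39a13 and Mybpc3 for Spi1, Gm45095 and Slc7a10 for Cebpa, Tmem189 and Ptpn1 for Cebpb, Cox4i1 and Foxf1 for Irf8, and Rpap2 and Evi5 for Gfi1. The position of each gene on mm9 was not available from the reference used here, so distances from start sites are not given.

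The 5 loci were marked very unequally. Cebpb carried 3 gmp, 15 k+ and 21 k- regions, and Gfi1 carried 3, 8 and 13. Spi1 carried 2 gmp, 9 k+ and 4 k- regions and was the only one of the 5 with more k+ than k- regions. Irf8 carried 3 gmp and 6 k- regions and no k+ region, and Cebpa carried 4 k- regions and nothing in the other lists. In covered length the order was similar. Cebpb held 1800 bp of gmp, 23000 bp of k+ and 40600 bp of k- regions, and Spi1 held 3200, 12800 and 8400 bp. Gfi1 held 2200, 8000 and 12000 bp, Irf8 held 800, 0 and 2800 bp, and Cebpa held 0, 0 and 2200 bp.

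**Figure D1:**
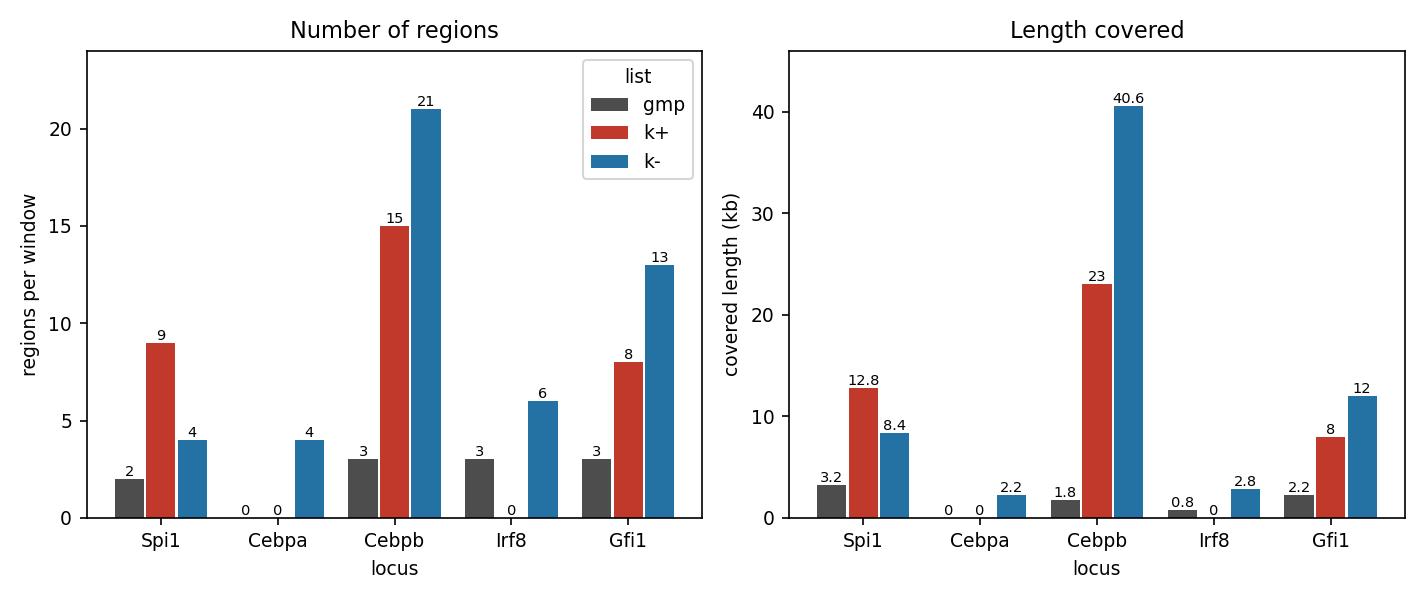
Regions per window (left, count) and length covered by them (right, kb) at the 5 loci, with 1 bar for each of the gmp, k+ and k- lists and no error bars because each list is a single catalogue. Cebpb has the highest k+ and k- bars (15 and 21 regions), Spi1 alone has a higher k+ than k- bar, and Cebpa and Irf8 have a k+ bar of 0.

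Summed over the loci, the leukemia lists stood to the gmp list nearly as they did genome-wide in region counts, but not in covered length. The covered length was 5.47 times that of gmp in k+ and 8.25 times in k-, beside 4.31 and 7.01 times over the whole lists. The k+ list had 2.91 times and the k- list 4.36 times as many regions as gmp, beside 2.82 and 4.16 times over the whole lists, and the 5 windows held 0.330% of gmp, 0.340% of k+ and 0.346% of k- regions. Of the 11 GMP regions, 5 met neither leukemia list, or 45.5% (exact Clopper-Pearson 95% interval 16.7 to 76.6%), beside 45.1% of all GMP regions. Of the 55 leukemia regions obtained by merging k+ and k-, 49 met no GMP region, or 89.1% (77.8 to 95.9%), beside 90.0% of all. These shares over all 5 loci together lay near the background, and what follows describes how the loci differed from one another.

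**Figure D2:**
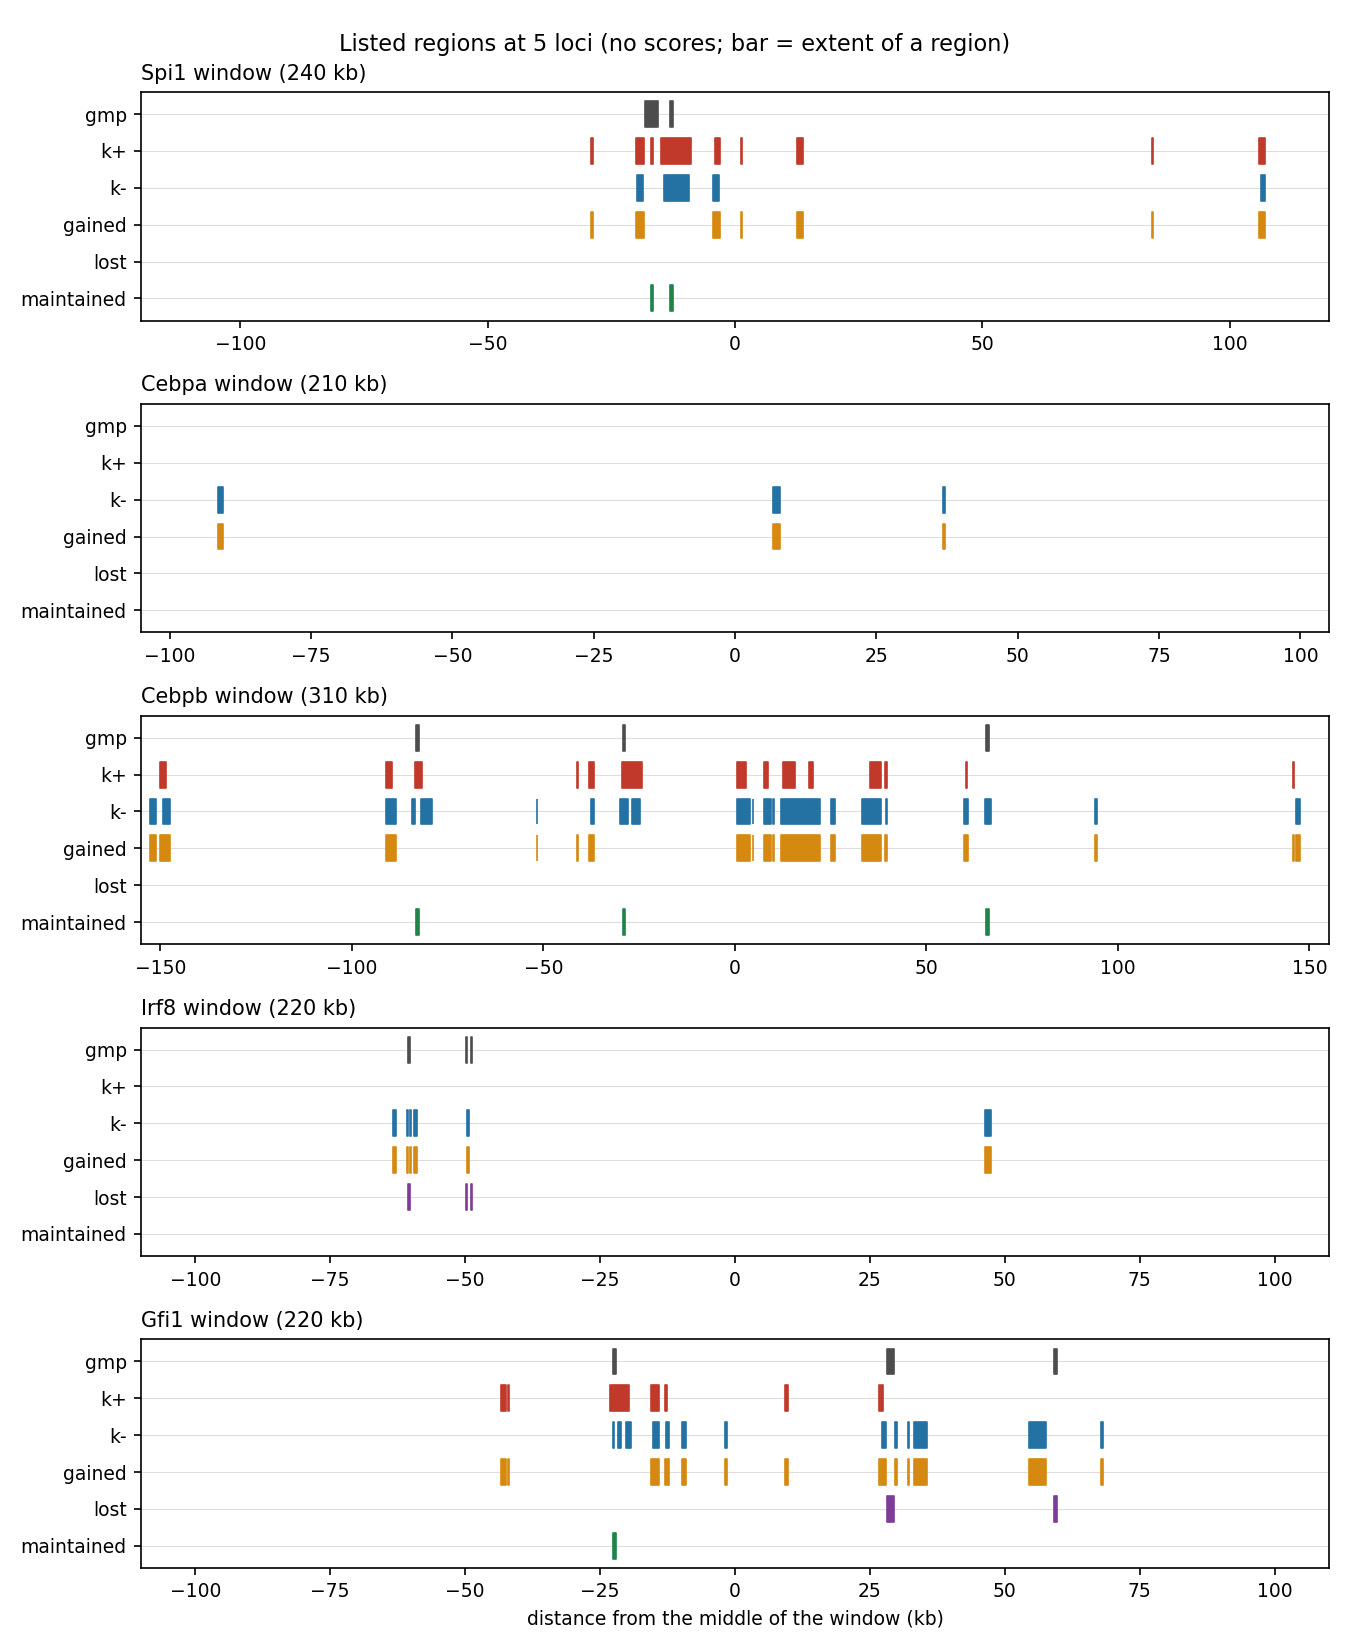
Extent of every listed region in the 5 windows, drawn against the distance from the middle of the window (kb), with a row each for the gmp, k+ and k- lists and for the gained, lost and maintained classes. Cebpb shows a dense run of k+ and k- regions right of its middle, the k+ rows of Cebpa and Irf8 are empty, and lost regions appear at Irf8 (3) and Gfi1 (2) only.

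At Spi1, both GMP regions met a leukemia region and each held an entry of the maintained list. The leukemia regions formed a run around them. The wider GMP region, chr2:90921801-90924400, measured 2600 bp and ranked 50 by width among the 3332 GMP regions. Only 400 bp of it, or 15.4%, lay in a k+ region (chr2:90923001-90923400), and none lay in a k- region, the nearest of which was 400 bp away. The maintained entry was this 400 bp part alone, and not the whole GMP region. The second, chr2:90926801-90927400 (600 bp), lay wholly inside the widest region of the window in each leukemia list. These were chr2:90925001-90931200 in k+ (6200 bp, rank 42 of 9404) and chr2:90925601-90930800 in k- (5200 bp, rank 181 of 13856). Thus 1 of the 2 maintained calls at Spi1 rested on a single 400 bp piece in 1 leukemia list, while the other was embedded in long regions of both.

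The 7 gained regions at Spi1 covered 6600 bp, and none was in k- alone. Both lists contributed to 3 of them, chr2:90920001-90921600 (1600 bp), chr2:90935601-90937000 (1400 bp) and chr2:91046001-91047200 (1200 bp). The other 4 came from k+ alone and measured 200 to 1200 bp, the widest being chr2:90952601-90953800. All 4 k- regions at Spi1 met a k+ region, and 4 of the 9 k+ regions met a k- region. In base pairs 95.2% of the k- length at Spi1 lay in k+, beside 37.9% over the whole lists. The share of the k+ length in k- was 62.5%, close to the 61.7% over the whole lists. The fullest groups of gained regions at Spi1, joined where at most 10 kb apart, held 2 each (chr2:90910801-90921600 and chr2:90935601-90941400). Joined in the same way, 6 k+ regions formed a group of 30.6 kb (chr2:90910801-90941400), where k- had 3 regions within 16.6 kb.

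At Cebpa, the k- list had 4 regions and the gmp and k+ lists had none, so the locus held 4 gained regions, all from k- alone. They were chr7:35813601-35814400 (800 bp), chr7:35911801-35912000 (200 bp), chr7:35912201-35913000 (800 bp) and chr7:35941801-35942200 (400 bp). The middle 2, within 1.2 kb (chr7:35911801-35913000), were the fullest group of gained regions at Cebpa. The widest 2 equalled the median of the whole k- list, 800 bp, and the other 2 were narrower. The nearest GMP regions lay 825.0 kb left and 331.2 kb right of the window, and the nearest k+ regions 758.8 and 383.4 kb away. Of the 1409 autosomal windows of the same length that held at least 4 k- regions, 70 held no k+ region, or 4.97%. This condition was set from the counts of Cebpa itself, so the share is a description and not a test. When each list was reduced to its 3332 widest regions, the length of the gmp list, no region was left at Cebpa. The empty gmp and k+ lists at Cebpa do not show that the locus lacked enhancer marks in those cells, since the rule and the depth behind the lists are unknown.

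At Cebpb, all 3 GMP regions were maintained and lay wholly within leukemia regions, each in its own way. The first, chr2:167481801-167482600 (800 bp), was inside a k+ region of 2000 bp and fell in a gap between 2 k- regions, 400 bp from each. The second, chr2:167535801-167536200 (400 bp), was inside a region of each list, 5200 bp wide in k+ (chr2:167535401-167540600) and 2000 bp in k-. The third, chr2:167630601-167631200 (600 bp), was inside a k- region of 1400 bp, and the nearest k+ region was 5000 bp away. Cebpb thus held 1 GMP region kept in k+ alone, 1 kept in both lists and 1 kept in k- alone.

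The gained regions of Cebpb included the widest of the 5 loci. There were 18 of them covering 33400 bp, of which 9 were in both leukemia lists, 2 in k+ alone and 7 in k- alone. Those in both lists covered 27600 bp and had a median of 2400 bp, while those in k- alone had 600 bp. The widest, chr2:167577001-167587200 (10200 bp), was a single k- region that ranked 6 by width in the k- list and 3 among all gained regions, and over the same stretch k+ had separate regions of 3200 and 1200 bp. The next were chr2:167598201-167603000 (4800 bp) and chr2:167565601-167568800 (3200 bp). These 3 belonged to a group of 8 gained regions within 39.0 kb (chr2:167565601-167604600), which covered 22000 bp of it. This group contained no GMP region. Windows with as many regions were rare. Of 7937 autosomal windows of 310 kb, 22 (0.277%) held at least 15 k+ regions and 13 (0.164%) at least 21 k- regions. The median window held 0 of either. Among the 3517 windows with a listed region, the shares were 0.626% and 0.370%, and the medians 2 and 3. Among the k+ regions of Cebpb, 13 of 15 met a k- region, beside 4 of 9 at Spi1 and 4 of 8 at Gfi1.

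At Irf8, all 3 GMP regions were classed as lost although a k- region lay beside every one. The GMP regions were narrow, chr8:123209401-123209800 (400 bp), chr8:123220201-123220400 (200 bp) and chr8:123221001-123221200 (200 bp). The first was flanked without a gap by a k- region on each side (chr8:123209201-123209400 and chr8:123209801-123210000). The second touched the k- region chr8:123220401-123220800, and the third lay 200 bp from its other end. All listed positions fell on a 200 bp grid, so these neighbours were 0 or 1 grid step apart. The 6 k- regions, classed as gained, covered 2800 bp with a median of 400 bp, and 4 of them had a GMP region within 1 kb. The fullest group held 5 of them within 14.2 kb (chr8:123206601-123220800). The widest, chr8:123316401-123317400 (1000 bp), lay 95.2 kb from the nearest other region of the 3 lists inside the window. Regions past the window edge were not measured for this distance. Next in width were chr8:123206601-123207200 (600 bp) and 2 regions of 400 bp, chr8:123210601-123211000 and the one touching the second GMP region. No k+ region lay in the Irf8 window, and the nearest were 100.2 kb left and 921.2 kb right of it. Of the 770 autosomal windows of this length with at least 6 k- regions, 14 held no k+ region, or 1.82%, and the median of those 770 was 5 k+ regions. Here too the condition was set from the counts of the locus itself, and the share is a description only. The counts at Irf8 depended on the window edges: a window cut by 25% at each side held 2 k- regions, and one widened by 50% at each side held 1 k+ region. None of the Irf8 k- regions was among the 3332 widest of its list, so with lists of equal length the locus had no leukemia region.

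At Gfi1, 1 GMP region was maintained and 2 were lost. The maintained region, chr5:108127401-108128000 (600 bp), was wholly inside a k+ region of 3600 bp (chr5:108126801-108130400) and met a k- region over 200 bp, or 33.3% of its width. The wider lost region, chr5:108178201-108179400 (1200 bp), ranked 81 by width among the 1504 lost regions. It lay between 2 k- regions (chr5:108177201-108178000 and chr5:108179601-108180000), 200 bp from each, and 800 bp from the nearest k+ region. The other, chr5:108209201-108209600 (400 bp), was 1600 bp from a k- region and 31800 bp from a k+ region.

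Gfi1 had 14 gained regions covering 13200 bp, of which 3 were in both lists, 4 in k+ alone and 7 in k- alone. The widest 2, chr5:108204401-108207600 (3200 bp) and chr5:108183201-108185600 (2400 bp), were in k- alone, and the third, chr5:108134401-108136000 (1600 bp), was in both. The fullest group held 5 gained regions within 9.0 kb (chr5:108176601-108185600) around the wider lost GMP region. In base pairs, the leukemia lists overlapped least here among the 3 loci that had both. At Gfi1 35.0% of the k+ length lay in k- and 23.3% of the k- length in k+. These shares were 77.4% and 43.8% at Cebpb, and 61.7% and 37.9% over the whole lists. By count, 4 of 8 k+ regions of Gfi1 met a k- region, beside 4 of 9 at Spi1. In the other direction 6 of 13 k- regions of Gfi1 met a k+ region, the lowest of the 3 loci. From chr5:108182001 to the end of the window, all 4 leukemia regions of Gfi1 were from k-.

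A sequence is shown for Gfi1 because 1 of its promoter sequences matched a recognition motif of the factors themselves. It was the single match among the 6 promoter sequences that RefSeq (GRCm38.p6) gave for Cebpa, Cebpb, Irf8 and Gfi1. The other Gfi1 sequence, chr5:107724344-107724593, had no match. The searched motifs were GAGGAAGT for PU.1, TTNNGCAA for C/EBP, GAAANNGAA for IRF factors and AAATCANNG for GFI1, on both strands of the 250 bases before the start. They occur in 2.44%, 9.56%, 7.13% and 2.75% of 32851 promoters of that length. The share of promoters with any of them was not computed, so 1 match among 6 sequences is not read as a result. The match, in capitals, is to the C/EBP motif on the reverse strand. The sequence is that of chr5:107725806-107726055 on GRCm38.p6, minus strand, 5′ to 3′, and no mm9 region was placed on it. A match describes these letters and does not show that a factor bound there.
Gfi1 promoter: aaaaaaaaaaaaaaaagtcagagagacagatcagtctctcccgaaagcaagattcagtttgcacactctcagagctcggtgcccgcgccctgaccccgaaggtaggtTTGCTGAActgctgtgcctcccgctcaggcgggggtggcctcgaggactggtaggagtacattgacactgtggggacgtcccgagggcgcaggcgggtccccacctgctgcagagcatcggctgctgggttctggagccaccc

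**Figure D3:**
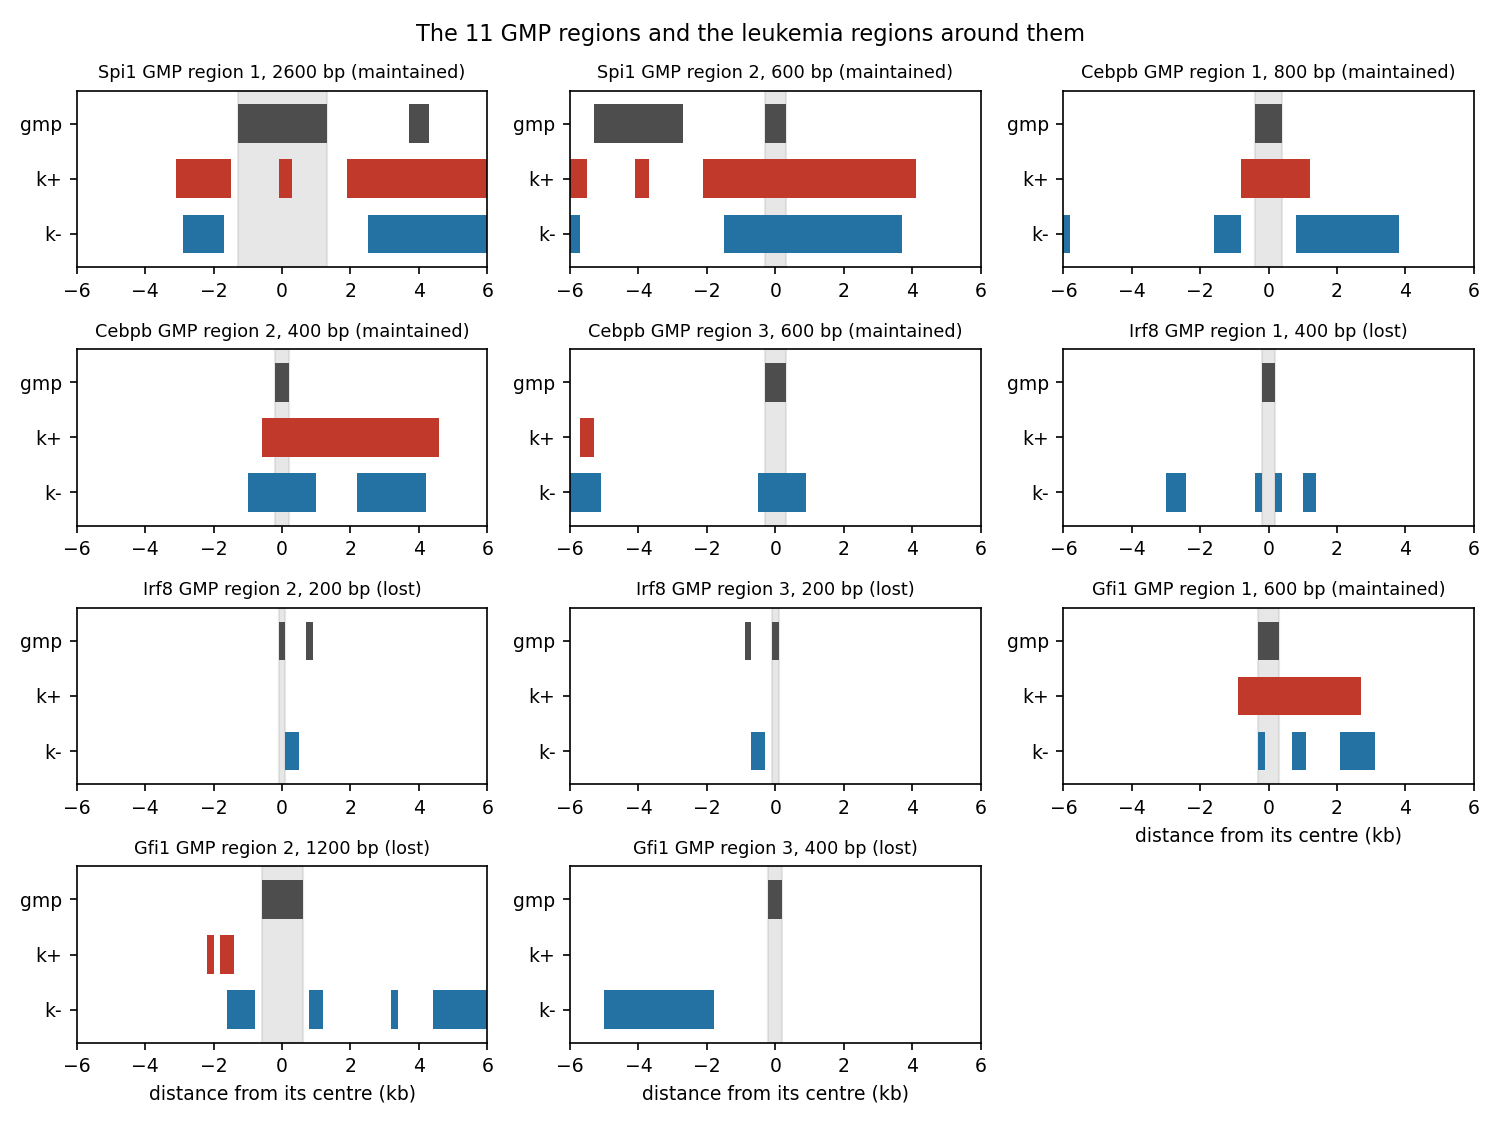
The 11 GMP regions of the 5 loci, each centred in its own panel (shaded), with the regions of the gmp, k+ and k- lists within 6 kb on either side (kb). The 6 maintained regions are overlapped by a k+ or k- bar, and 4 of the 5 lost regions, 3 at Irf8 and 1 at Gfi1, have a k- bar within 200 bp.

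The lost calls at these loci were near misses in 4 of 5 cases, each beside a k- region. A k+ region lay within 1 kb of only 1 of them, the 1200 bp region of Gfi1, at 800 bp. At Irf8 the nearest k+ region was at least 149600 bp away. A leukemia region touched 2 of the 5 lost regions, or 40.0% (5.27 to 85.3%), beside 11.1% of all lost regions. Within 1 kb there was a leukemia region for 4 of 5, or 80.0% (28.4 to 99.5%), beside 30.1% of all lost regions. The median distance to a leukemia region was 8400 bp over the 1463 lost regions on chromosomes that had leukemia regions. Of all 1504 lost regions, 6 were touched on both sides, as the 400 bp region of Irf8 was. These distances were compared after the positions had been seen. The class of a GMP region at Irf8 and Gfi1 therefore depended on the overlap required. With a partner allowed within 1 kb, 1 of the 11 GMP regions was without one (the 400 bp region of Gfi1), beside 31.6% of all GMP regions. With at least 50% of both regions shared, all 11 were without one, at Spi1 and Cebpb too, beside 80.9% of all. A narrow GMP region inside a much wider leukemia region fails that rule even when wholly covered. This was so for the wholly covered GMP regions of Spi1, Cebpb and Gfi1.

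Gained regions were split between the leukemia lists over the 5 loci as over the genome, but not alike at each locus. Of the 49 gained regions, 15 were in both lists, or 30.6% (18.3 to 45.4%), beside 28.3% of all gained regions. In k+ alone were 10, or 20.4% (10.2 to 34.3%), beside 21.2%, and in k- alone were 24, or 49.0% (34.4 to 63.7%), beside 50.5%. All 10 gained regions of Cebpa and Irf8 were in k- alone, and none of the 7 of Spi1 was. Of the 32 k+ regions, 21 met a k- region, or 65.6% (46.8 to 81.4%), beside 61.0% of all, and of the 48 k- regions 22 met a k+ region, or 45.8% (31.4 to 60.8%), beside 39.5%. Those in both lists were wider, with a median of 1600 bp against 400 bp in k+ alone and 400 bp in k- alone, beside 1800, 400 and 600 bp over the whole gained list. Gained regions are merged from both lists, which by itself widens those found in both. The intervals cover counting error only, and regions of 1 locus are neighbours and not independent.

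**Figure D4:**
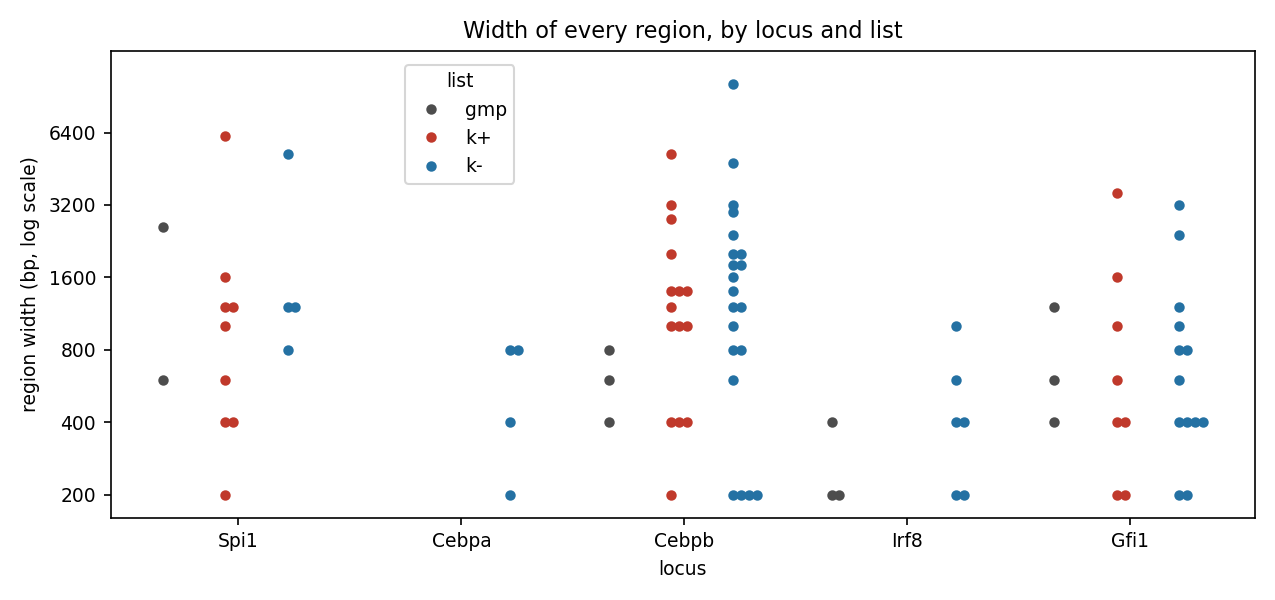
Width of every gmp, k+ and k- region (bp, log scale) at the 5 loci, 1 point per region, with equal widths set side by side. The widest points are the k- region of 10200 bp at Cebpb and the k+ region of 6200 bp at Spi1, while no region of Cebpa or Irf8 exceeds 1000 bp.

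Region widths also varied among the loci. The widest leukemia region measured 10200 bp at Cebpb, 6200 bp at Spi1 and 3600 bp at Gfi1, but 1000 bp at Irf8 and 800 bp at Cebpa. The k- regions had a median of 1400 bp at Cebpb and 1200 bp at Spi1, against 600 bp at Gfi1 and Cebpa and 400 bp at Irf8. GMP regions ranged from 200 bp at Irf8 to 2600 bp at Spi1. Restricting all lists to regions of at least 800 bp left 5 k+ and 4 k- regions at Spi1, 11 and 16 at Cebpb and 3 and 6 at Gfi1. It left 2 of the 4 k- regions at Cebpa and 1 of the 6 at Irf8, where k+ again had none.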

How the data were processed

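The 24 sequenced samples were immunoprecipitated chromatin or input, with 1 sample per group. The deposited files used here were 6 region lists of the whole series, each with 3 columns (chromosome, start, end) and other values absent. They name no sample. Per the submitters' processing notes the build was mm9 and the tools included BWA, Picard, MACS2, HOMER and deepTools; versions, settings and the enhancer rule are not stated in the sources used here. Positions are printed counted from 1.

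Regions were compared in Python 3.11.15 (NumPy 2.4.6, SciPy 1.17.1, pandas 2.3.3, matplotlib 3.10.9), at a minimum overlap of 1 bp. Rebuilding the classes from gmp and merged k+ and k- gave the 49 deposited gained and 5 lost regions of the loci with identical coordinates. The overlap code was tested on simulated data. Background windows of each locus's length tiled the autosomes from their first base to the last listed region. Regions at most 10 kb apart formed a group. The loci, windows and motifs were chosen with earlier results of these data known. All GMP, lost and maintained regions are named, and of the gained regions the widest 3 per locus and the fullest group; others were chosen after their values were seen. Sequences of enhancers need an mm9 genome and were not used here.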

Additional observations from a re-analysis of the deposited data

How the results depend on the processing

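No paired analysis was possible because no group holds a second sample, and the lists hold no scores, so depth limits every value to an unknown extent. Of 326 alternative values, 123 concerned sums or shares over the 5 loci, of which 99 stayed within the set range (1.5 times a count or length, or the interval of a share) and 24 did not. Some of the 326 could not move, such as sums without a locus that was empty in that list, or gmp cut to its own length. The share intervals were also wide, 16.7 to 76.6% for lost GMP regions. These tallies are therefore not a measure of stability. Keeping regions of at least 800 bp left 3 gmp, 19 k+ and 29 k- regions and 4600 bp of gmp. With the 3332 widest regions per list, 14 k+ and 12 k- regions were left, and the k+ minus k- difference became 0 at Cebpa, Irf8 and Gfi1. This cut fell at a different width in each list, 1200 bp in k+ and 1600 bp in k-, while gmp kept all its regions. Asking for 50% of both regions gave 11 lost and 0 maintained GMP regions (100% lost), 31.2% of k+ meeting k- and 20.8% of k- meeting k+. That rule also fails wholly covered regions whose partner is much wider. A partner within 1 kb gave 1 lost and 10 maintained (9.09% lost). With the 9404 widest k- regions, 30.6% of gained regions were in k- only. Without Cebpb there were 17 k+, 27 k-, 31 gained and 3 maintained regions, covering 20800 bp in k+ and 25400 bp in k-. Without Irf8 there were 2 lost regions, without Gfi1 3, and without Spi1 4800 bp of gmp. Of the 203 values for single loci, 146 stayed within that range, and no k+ minus k- difference changed sign, though with regions of at least 800 bp that of Spi1 was 1. Tiling from the middle of a window length was added after seeing the data.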

Other observations

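Spi1 leaned towards k+ more than dense k+ windows usually do, by an amount that the placing of the windows and the width of the regions changed. Of the 157 autosomal windows of 240 kb with at least 9 k+ regions, 1 held 4 or fewer k- regions, and the median held 11. With the tiling started from the middle of a window length it was 5 of 151. Among regions of at least 800 bp, Spi1 held 5 k+ and 4 k- regions, so its k+ minus k- difference fell from 5 to 1. Both window counts were made after the Spi1 values had been seen.

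Long stretches without k+ regions, such as those around Cebpa (1352.2 kb) and Irf8 (1241.4 kb), were few by count but filled much of the autosomes. Of the 9276 autosomal stretches between neighbouring k+ regions, 429 were as long as that of Cebpa. They made up 56.1% of the span from the first to the last k+ region, a share that long stretches dominate. For the length at Irf8 there were 467 of the 9276 stretches, and these made up 58.2% of the span. A window empty of k+ regions was thus common by itself (73.0% of autosomal windows of the Cebpa length and 71.8% of those of the Irf8 length), and less common among windows with as many k- regions as these loci. The latter condition was set from the counts of the loci themselves.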
